A study of Mus musculus with 7 samples.

Results

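Klk1b24, Klk1b21, Klk1b22 and Klk1b27 are 4 mouse genes of the kallikrein 1b family, followed here in sperm RNA measured on 7 expression arrays. They were taken as every probe set that the platform annotation gives to 1 of these symbols alone. Each gene had 1 such probe set, and 0 probe sets were shared with a second gene, so the 4 genes stand among 22154 distinct gene symbols on 23493 probe sets. The 4 were chosen by their measured log2 differences between the groups on these same arrays, TG3 against nonTG3 and the line against C57BL/6, so their values are a description, and no test of them is given. They are known from testis, but every array here held sperm, and no testis sample was analysed here.

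The study asked what a KDM1A transgene leaves behind in sperm over generations. KDM1A is an enzyme that removes methyl groups from histone H3. The construct was injected into C57BL/6 zygotes, giving 2 female founders, and heterozygous males then passed it on in matings with C57BL/6 females for 3 generations. TG3 males of generation 3 carried the transgene, nonTG3 males were their littermates without it, and C57BL/6 males were the strain of origin. TG3 and nonTG3 had 3 arrays each, each array a pool of 4 males, and C57BL/6 had 1 array of a pool of 5 males. The sources used here give neither the promoter that drives the transgene nor whether a male entered more than 1 pool. TG3 and nonTG3 together are called the line below. Both carry the line's breeding history, so a difference between the line and C57BL/6 cannot be told apart from a difference between that lone pool and any other pool.

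Tissue kallikreins are secreted serine proteases that cut after basic residues, like trypsin. In the mouse, the gene Klk1, whose product releases kinins, lies at the end of a tandem row of very similar Klk1b genes that arose by duplication. Many Klk1b genes are known from the submandibular salivary gland, where androgens raise them. Klk1b21, Klk1b24 and Klk1b27 have also been described in Leydig cells, the cells of the testis that make testosterone. Klk1b21 protein cuts fibronectin and the growth factor binding protein IGFBP3 in the test tube, and the Klk1b22 product is known as an EGF-binding protein.

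The promoters of the 4 genes are shown because they let a reader see how alike the regions around their starts are. Most of each promoter window lies before the transcript start, outside the RNA, so it does not show how alike the measured RNAs are. Each window runs 5′ to 3′ from 250 bases before to 50 bases after the annotated transcript start, taken from RefSeq in the build GRCm38.p6. All 4 lie on the plus strand of chromosome 7, Klk1b27 at chr7:44052040-44052339, Klk1b21 at chr7:44102042-44102341, Klk1b22 at chr7:44112423-44112722 and Klk1b24 at chr7:44187986-44188285. Capitals mark matches to TTTAAA and to CAAGGNCA on either strand.
Klk1b24: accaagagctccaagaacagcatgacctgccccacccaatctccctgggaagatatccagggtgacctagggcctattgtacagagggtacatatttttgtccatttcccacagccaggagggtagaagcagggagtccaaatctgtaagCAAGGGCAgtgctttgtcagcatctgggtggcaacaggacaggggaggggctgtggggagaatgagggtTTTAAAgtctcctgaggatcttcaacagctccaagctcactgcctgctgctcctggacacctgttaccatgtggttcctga
Klk1b21: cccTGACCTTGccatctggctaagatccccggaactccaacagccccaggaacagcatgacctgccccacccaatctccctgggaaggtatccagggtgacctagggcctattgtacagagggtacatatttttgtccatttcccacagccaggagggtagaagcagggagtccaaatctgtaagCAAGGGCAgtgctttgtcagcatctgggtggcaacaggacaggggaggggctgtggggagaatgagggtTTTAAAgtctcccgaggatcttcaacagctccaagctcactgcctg
Klk1b27: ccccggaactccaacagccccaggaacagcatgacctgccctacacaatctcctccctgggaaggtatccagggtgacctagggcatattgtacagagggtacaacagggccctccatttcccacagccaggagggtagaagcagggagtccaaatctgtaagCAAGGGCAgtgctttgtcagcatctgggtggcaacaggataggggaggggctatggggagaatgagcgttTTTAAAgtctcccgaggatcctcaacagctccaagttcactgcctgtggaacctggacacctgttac
Klk1b22: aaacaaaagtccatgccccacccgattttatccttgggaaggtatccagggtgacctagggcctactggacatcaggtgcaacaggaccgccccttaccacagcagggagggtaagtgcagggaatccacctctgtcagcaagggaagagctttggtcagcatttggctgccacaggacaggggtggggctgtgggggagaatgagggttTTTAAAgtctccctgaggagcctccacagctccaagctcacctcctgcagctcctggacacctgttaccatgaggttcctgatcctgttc

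Klk1b24 and Klk1b21 had the most similar windows of all 91 pairs among Klk1 and the 13 protein-coding Klk1b genes. They matched at 259 of 265 aligned bases (97.7% identity) with 0 gaps, and shared an unbroken run of 178 bases. Klk1b27 matched Klk1b21 at 94.5% and Klk1b24 at 91.3%. Klk1b22 stood apart from the other members, at 80.7% to 82.1%. The 45 pairs without a member ran from 77.1% to 92.8% (median 85.6%), and the 40 pairs of a member with another gene from 80.5% to 88.4%. The 3 members described in Leydig cells thus had promoters at 91.3% identity or more, and Klk1b22 lay within the range of the other pairs.

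**Figure D1:**
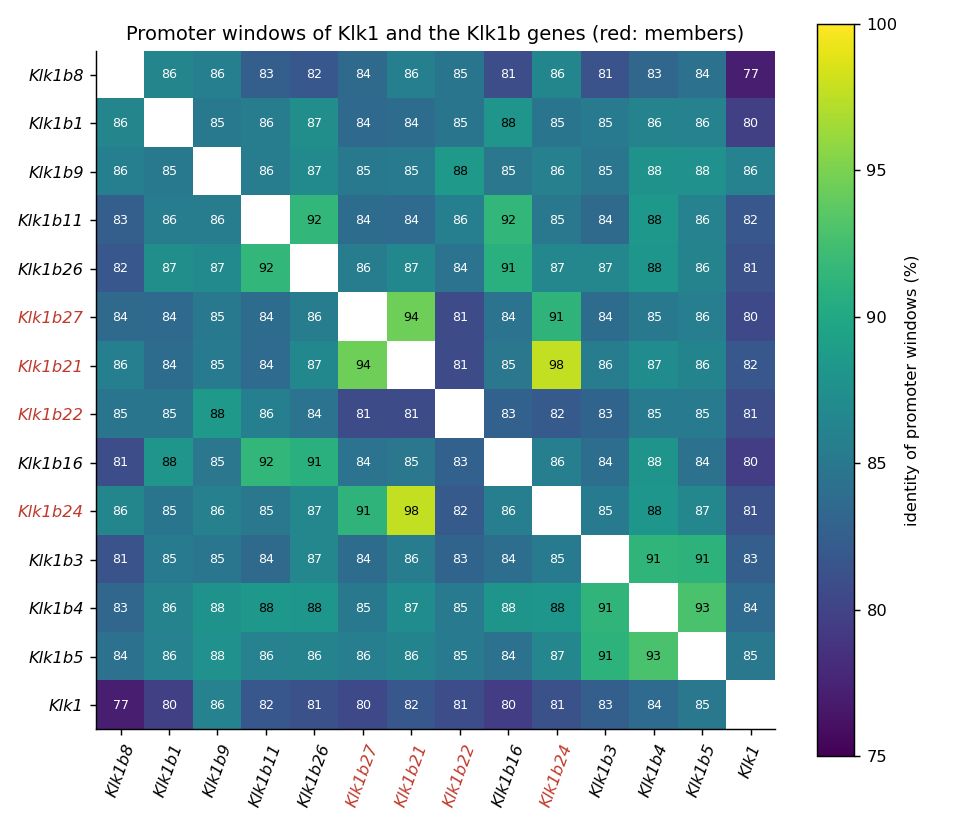
Identity in percent between the 300-base promoter windows of Klk1 and the protein-coding Klk1b genes, in chromosomal order along both axes, with members in red. The brightest squares are Klk1b21 with Klk1b24 (97.7%) and Klk1b21 with Klk1b27 (94.5%), whereas Klk1b22 is at 80.7% to 82.1% with the other members.

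CAAGGNCA is a loose form of the half-site of the steroidogenic factor Nr5a1, with any base allowed at N. It was found in 3 of 4 member windows on either strand and in 7 of the 14 windows of Klk1 and the Klk1b genes. Of 32851 RefSeq promoters of this length, 6.71% had it. Its letters were CAAGGGCA on the plus strand of Klk1b24, Klk1b21 and Klk1b27, beginning 100, 65 and 87 bases before the start, and CAAGGTCA on the minus strand of Klk1b21, 247 bases before it. The match shared by the 3 members thus had G at N, and T at N was in Klk1b21 alone among the members. Whether Nr5a1 binds the form with G was not tested. The Klk1b22 window lacked CAAGGNCA. The TATA box letters TATAAA were in 0 of 4 member windows and 13.6% of all. The sequence TTTAAA, looked for only after the windows had been read, was in 4 of 4 member windows, 13 of the 14 of the cluster and 13.2% of all, beginning 31 bases before the start in Klk1b24, 40 in Klk1b22 and 17 in Klk1b27, but 4 bases after it in Klk1b21. The Klk1b24 and Klk1b21 windows align with 0 gaps, and their TTTAAA matches lie at the same aligned bases. Their distances thus differ by where the transcript start is annotated. The palindromic androgen response element was in 0 of 4 (0.00913% of all), and its single arm AGAACA was in Klk1b24 alone among the members, 237 bases before the start (19% of all). These are letters found in a window, searched on both strands, and say nothing of binding. TTTAAA and AGAACA share no base with a CAAGGNCA match in these windows.

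The deposited values are log2 RMA intensities, in which a step of 1 is a doubling of signal. The arrays had medians of 3.52 to 3.61. A sperm marker, Odf1 (an outer dense fibre protein of the tail), read 11.12 to 11.86 on its brighter probe set, and the transition protein gene Tnp2 read 10.86 to 11.55 over the 7 arrays. Other genes of late spermatids were not as level. Of 14 measured, limma called 8 lower and 0 higher in the line than in C57BL/6. Tnp1, for example, read 12.40 in C57BL/6 and 9.23 to 9.85 in the line. The mean of 10 mitochondrially encoded probe sets was 8.80 on TG3 replicate 1 and 8.91 on nonTG3 replicate 3, against 9.98 to 11.55 on the other arrays, so each member is also given without both arrays. C57BL/6 values have no replicates, and arrays have no read depth, so the number of arrays limits the precision. The limma model took the spread from the TG3 and nonTG3 arrays and assumed that C57BL/6 would vary like them, and its p-values for other genes measure the spread between these pools.

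Klk1b24 (Entrez 16617) was highest in C57BL/6, lower in TG3 and lowest in nonTG3. It read 6.34 in C57BL/6. It read 4.78, 4.66 and 5.04 in TG3 replicates 1 to 3, and 4.25, 4.19 and 4.15 in nonTG3. The 3 groups did not overlap, and all 7 arrays were above their own medians. TG3 averaged 4.83 ± 0.19 (SD, n = 3), whereas nonTG3 averaged 4.20 ± 0.05 (SD, n = 3), a difference of 0.63 (limma SE 0.12), or 1.54-fold, with a gap of 0.41 between the lowest TG3 and the highest nonTG3 array. Against C57BL/6 the line was lower by 1.83 (SE 0.15), or 3.56-fold. TG3 was 2.86-fold and nonTG3 4.42-fold below the same lone array. Without both arrays of low mitochondrial RNA, TG3 minus nonTG3 was 0.63 and line minus C57BL/6 was -1.81.

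Klk1b21 (Entrez 16616) was higher in C57BL/6 than in the line, with TG3 and nonTG3 mixed. It read 3.64 in C57BL/6, 2.27, 2.76 and 2.36 in TG3, and 3.19, 2.62 and 2.24 in nonTG3. C57BL/6 lay above all 6 arrays of the line, and TG3 and nonTG3 overlapped. TG3 averaged 2.46 ± 0.26 (SD, n = 3) against 2.68 ± 0.48 (SD, n = 3) for nonTG3, so the difference of -0.22 (SE 0.27) was smaller than the spread between replicates, and it became 0.035 without nonTG3 replicate 1. The line differed from C57BL/6 by -1.07 (SE 0.36). Without both arrays of low mitochondrial RNA these differences were -0.35 and -0.91. Only the C57BL/6 array reached its array median, and whether values below the median lie above background was not measured, so no fold is given for this gene or for Klk1b27 and Klk1b22.

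Klk1b27 (Entrez 16619) was the member that varied most among replicates. It read 3.91 in C57BL/6, 2.87, 2.51 and 4.91 in TG3, and 2.78, 1.81 and 1.80 in nonTG3. TG3 replicate 3 was the highest of all 7 arrays, above C57BL/6, whereas the other 5 arrays of the line lay below C57BL/6. TG3 and nonTG3 overlapped. TG3 averaged 3.43 ± 1.29 (SD, n = 3) against 2.13 ± 0.57 (SD, n = 3) for nonTG3, and the difference of 1.30 (SE 0.69) was 0.56 without TG3 replicate 3. The line differed from C57BL/6 by -1.13 (SE 0.91), and by -1.50 without that array. TG3 minus C57BL/6, at -0.48 (SE 0.97), became -1.22 without TG3 replicate 3, -0.021 without TG3 replicate 2 and -0.20 without both arrays of low mitochondrial RNA. Without those 2 arrays TG3 minus nonTG3 was 1.41 and line minus C57BL/6 was -0.91. The TG3 value of Klk1b27 therefore rested on 1 pool.

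Klk1b22 (Entrez 13646), whose promoter was the least like the others, was also higher in C57BL/6 than in the line. It read 3.02 in C57BL/6, 1.82, 1.66 and 1.77 in TG3, and 1.82, 1.45 and 2.12 in nonTG3. C57BL/6 lay above all 6 arrays of the line, TG3 lay within the range of nonTG3, and 0 of 7 arrays reached their median. TG3 averaged 1.75 ± 0.08 (SD, n = 3) against 1.80 ± 0.34 (SD, n = 3) for nonTG3. Their difference of -0.05 (SE 0.18) turned to 0.11 without nonTG3 replicate 3 and to 0.078 without both arrays of low mitochondrial RNA. The line differed from C57BL/6 by -1.25 (SE 0.24), and by -1.35 without those 2 arrays.

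**Figure D2:**
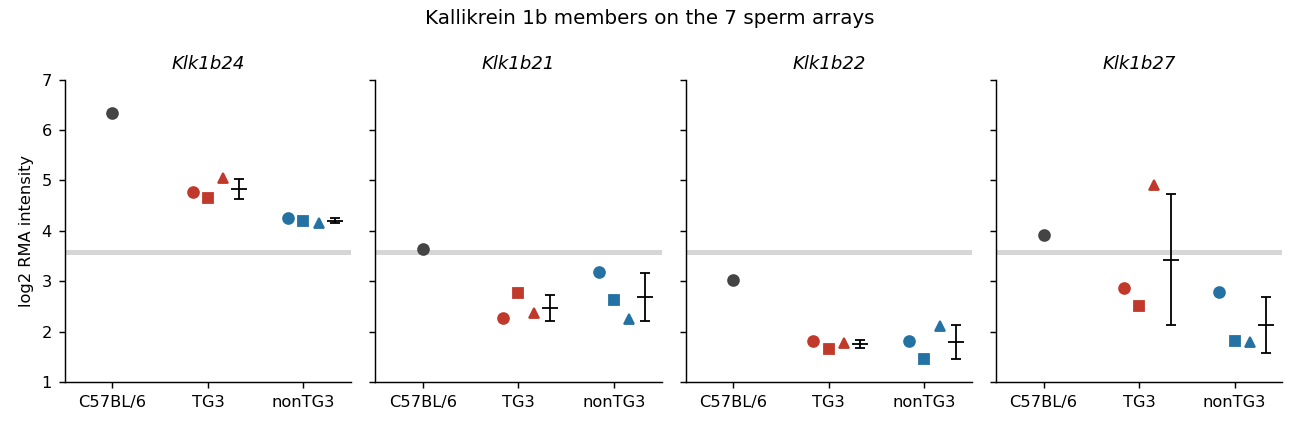
Log2 RMA intensity of the 4 genes on each array by group, with circles, squares and triangles for replicates 1, 2 and 3 and a bar for the mean ± SD of TG3 and of nonTG3. The grey band is the range of the array medians, 3.52 to 3.61. Klk1b24 falls into 3 separate groups above the band, Klk1b21 and Klk1b22 separate C57BL/6 from the line alone, and Klk1b27 has 1 TG3 array at 4.91.

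Across the 4 genes, C57BL/6 was above all 6 arrays of the line for 3 of 4, a pattern that 14.3% of all 23493 probe sets had, and below all 6 for 0 of 4, against 18.2%. Every TG3 array was above every nonTG3 array for 1 of 4, against 2.47% of all, and below for 0 of 4, against 1.65%. Klk1b24 alone had C57BL/6 above all TG3 and all TG3 above all nonTG3, the order of 89 probe sets (0.379%). The median difference of the members was 0.29 for TG3 minus nonTG3, where all probe sets had 0.0045, and -1.19 for the line minus C57BL/6, where all had 0.037. TG3 and nonTG3 share the 1 C57BL/6 array, against which the members' medians were -1.23 and -1.50 beside 0.048 and 0.032 over all probe sets. Within the line the members did not move as one. TG3 minus nonTG3 was above 0 for Klk1b24 and Klk1b27 and below 0 for Klk1b21 and Klk1b22.

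limma calls, at an adjusted p under 0.05 over all probe sets, are given as counts alone because these contrasts were used to choose the genes. TG3 against nonTG3 called 0 of 4 members and 0 of 23493 probe sets (0%), with a smallest limma adjusted p of 0.923 and with 559 at an unadjusted p under 0.05. The line against C57BL/6 called Klk1b24 alone, 1 of 4, where 3.02% of probe sets were called (2.85% lower and 0.170% higher). TG3 against C57BL/6 and nonTG3 against C57BL/6 each called Klk1b24 alone, where 2.53% of probe sets were called in both (2.41% and 2.43% lower, 0.119% and 0.0936% higher). Nothing is read from these shares about the members. The count for the line became 0 without both arrays of low mitochondrial RNA, as did those for TG3 and for nonTG3, and leaving out TG3 replicate 1 or nonTG3 replicate 2 also gave 0 for TG3.

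The neighbours of the 4 genes did not all show these differences. In the RefSeq order of protein-coding genes on chromosome 7, Klk1b27, Klk1b21, Klk1b22, Klk1b16, Klk1b24, Klk1b3, Klk1b4, Klk1b5 and Klk1 follow each other, with pseudogenes between some of them. Klk1b16, the gene between Klk1b22 and Klk1b24, read 2.05 in C57BL/6, 2.29, 2.11 and 2.39 in TG3, and 2.39, 2.66 and 2.32 in nonTG3, so C57BL/6 was its lowest array (line minus C57BL/6 0.31, SE 0.17, limma adjusted p = 0.641). Klk1b5 read 5.61 in C57BL/6 and 5.40 to 5.74 in the line, with overlap. Klk1, the kinin-releasing kallikrein, read 2.55 in C57BL/6, 2.24, 2.54 and 2.51 in TG3, and 2.18, 2.51 and 3.41 in nonTG3, and the line differed from C57BL/6 by 0.02 (SE 0.43, limma adjusted p = 1). Klk1b16 and Klk1 reached the array median on 0 of 7 arrays, so their distance from background limits what their values show. C57BL/6 below all 6 arrays of the line, as for Klk1b16, was the pattern of 18.2% of all probe sets. Klk1b3 and Klk1b4 had no probe set of their own and are not analysed here. Klk1b16, Klk1b5 and the genes of the next paragraph were chosen for naming after their values were seen, and Klk1 by rule.

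Of the 10 other protein-coding genes of the Klk1 and Klk1b row, 7 were measured by a probe set of their own, and limma called 0 of 7 in each of the 4 contrasts. Their median line minus C57BL/6 difference was -0.09, with 4 of 7 below 0. Klk1b8 was the nearest to the members in that contrast. It read 5.46 in C57BL/6, 4.00, 4.14 and 4.48 in TG3, and 4.42, 4.55 and 5.23 in nonTG3, and C57BL/6 lay above all 6 arrays of the line. The difference was -0.99 (SE 0.33, limma adjusted p = 0.292). Klk1b11 was the nearest to Klk1b24 in the transgene contrast, at 4.89, 5.04 and 4.86 in TG3 and 4.32, 3.91 and 4.71 in nonTG3, groups that did not overlap (difference 0.62, SE 0.21, limma adjusted p = 0.923). C57BL/6 read 4.85, within the line's range. A probe set annotated to both Klk1b26 and Egfbp2 read 5.22 in C57BL/6 and 4.79 to 5.94 in the line.

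**Figure D3:**
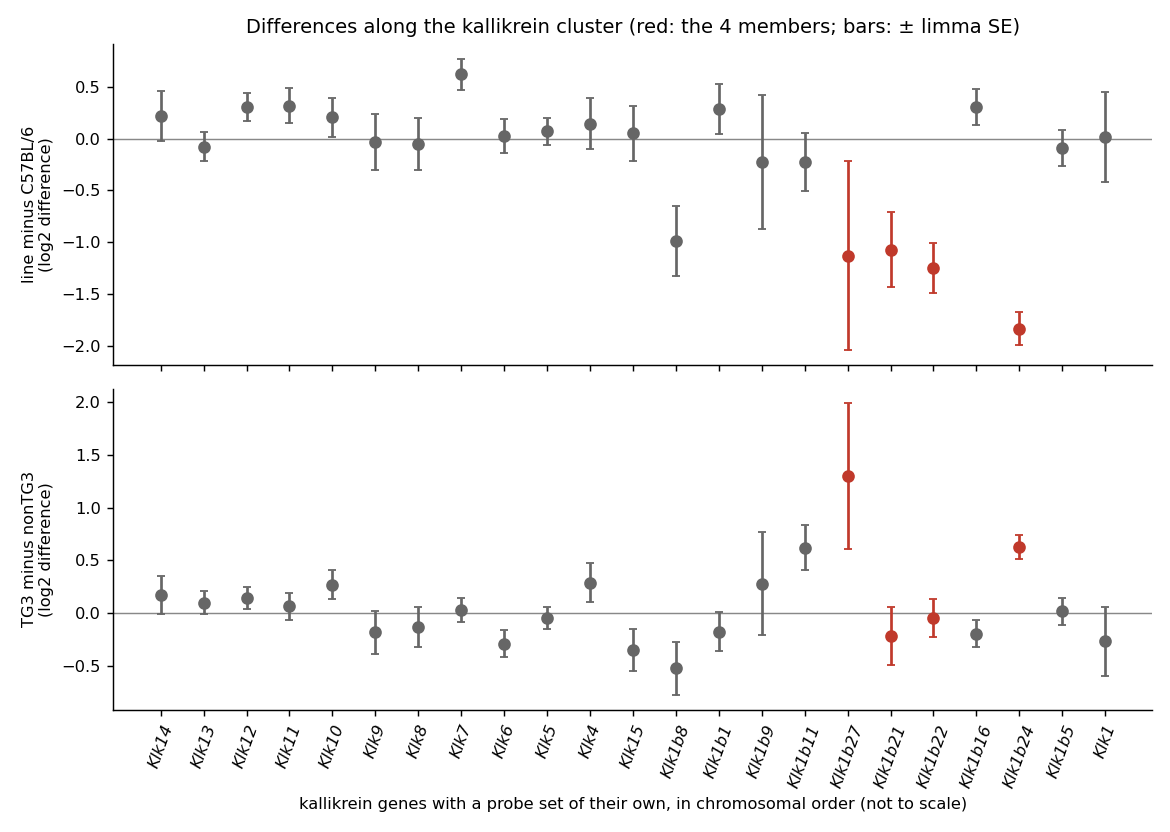
Log2 difference of each kallikrein gene with a probe set of its own, in chromosomal order and not to scale, for the line minus C57BL/6 (top) and TG3 minus nonTG3 (bottom), with bars for the limma SE and members in red. In the top panel the members lie at -1.07 to -1.83, and Klk1b16, which read below the median on every array, lies between them at 0.31. In the bottom panel Klk1b24 and Klk1b27 are the members above 0.

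The 13 more distant kallikreins listed were Klk4 to Klk15 of skin, enamel and brain, and plasma kallikrein Klkb1. Klkb1 had only a probe set shared with Cyp4v3, which read 3.58 in C57BL/6 and 3.64 to 3.99 in the line and was not tested. Klk4 to Klk15 were measured, 12 of the 13, and limma called 0 of 12 in each contrast. Their median was 0.11 for the line minus C57BL/6 and 0.05 for TG3 minus nonTG3. Klk7, a kallikrein of skin shedding, had the largest difference of these from C57BL/6, at 0.62 (SE 0.15, limma adjusted p = 0.139), with 3.22 in C57BL/6 and 3.72 to 4.00 in the line. The probe sequences were not used here, so whether a probe set of 1 member also reads RNA of a similar gene was not tested. Over these 7 arrays the 4 probe sets gave different orders of the arrays. This cannot decide that question, because dim probe sets such as those of Klk1b21 and Klk1b22 can also differ by noise.

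Substrates, receptors and inhibitors around tissue kallikreins were measured for 17 of 20 listed genes. limma called 1 of 17 in each contrast with C57BL/6, lower in the line, and 0 of 17 for TG3 against nonTG3. The gene was Serpina5, the serpin known as protein C inhibitor, which blocks kallikreins and other serine proteases. It read 4.04 in C57BL/6, 2.28, 2.07 and 2.28 in TG3, and 2.21, 2.21 and 2.01 in nonTG3. C57BL/6 lay above all arrays of the line, and TG3 and nonTG3 overlapped. Only the C57BL/6 array reached its array median. The line was lower by 1.86 (SE 0.14), at a limma adjusted p of 0.00434. Leaving out each array of the line in turn kept the call in 6 of 6 fits (limma adjusted p 0.0159 to 0.0229) and missed the threshold without both arrays of low mitochondrial RNA (0.0778), where the difference was -1.84. The list's median was 0.14 for the line minus C57BL/6 and -0.03 for TG3 minus nonTG3. The substrate genes Fn1 (fibronectin) and Igfbp3 differed from C57BL/6 by 0.64 (SE 0.56, limma adjusted p = 0.912) and 0.25 (SE 0.17, limma adjusted p = 0.758), and the kinin receptor genes Bdkrb1 and Bdkrb2 by 0.14 and -0.06 (limma adjusted p = 1 for each).

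Leydig cell genes were lower in the line in part. Of 20 listed, 15 were measured, and Insl3, Lhcgr, Akr1b7, Prlr and Srd5a1 are not analysed here. limma called 4 of 15 lower for the line against C57BL/6 (Cyp17a1, Hsd3b6, Hsd17b3 and Star), 3 for TG3, 4 for nonTG3 and 0 for TG3 against nonTG3. With 1 array of the line left out the counts were 2 to 4 for the line, 2 to 3 for TG3 and 2 in every such fit for nonTG3, where leaving out any of the 6 arrays ended the Hsd17b3 call. The list's median difference was -0.03 for the line, with 9 of 15 below 0. Its mean level was 4.36 in C57BL/6, 3.81 to 3.84 in TG3 and 3.51 to 3.78 in nonTG3.

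Cyp17a1, the enzyme that turns progestins into androgens, read 6.56 in C57BL/6, 2.57, 2.70 and 2.16 in TG3, and 2.60, 2.18 and 2.19 in nonTG3 (line minus C57BL/6 -4.16, SE 0.26, limma adjusted p = 0.00293). Hsd3b6, a 3-beta-hydroxysteroid dehydrogenase of adult Leydig cells, read 4.39 in C57BL/6 and 1.71 to 2.27 in the line (-2.33, SE 0.22, limma adjusted p = 0.00702). Hsd17b3, which makes testosterone, read 4.23 in C57BL/6 and 2.91 to 3.34 in the line (-1.17, SE 0.17, limma adjusted p = 0.0272), a call lost in 5 of 6 fits with an array left out. In these 3 genes C57BL/6 was above all arrays of the line, and TG3 and nonTG3 overlapped. In each of them only the C57BL/6 array reached its array median. Cyp11a1, which cuts the side chain of cholesterol, had a probe set that was lower in the line (4.74 against 2.48 to 2.84, -2.03, SE 0.17, limma adjusted p = 0.00552) and a second that was level (3.20 against 3.09 to 3.38, limma adjusted p = 1), so its probe sets disagreed.

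Amy1 of the salivary list and Star had the same order of groups as Klk1b24, one that 0.379% of all probe sets had. Amy1, named after its values were seen, read 3.45 in C57BL/6, 3.03 to 3.11 in TG3 and 2.26 to 2.81 in nonTG3. All its values lay below the array medians. Star brings cholesterol into mitochondria. Star read 4.25 in C57BL/6, 3.44, 3.44 and 3.50 in TG3, and 3.04, 2.79 and 3.15 in nonTG3, with no overlap between any groups. Only the C57BL/6 array reached its array median for Star, so the order of TG3 and nonTG3 rests on values below it. TG3 minus nonTG3 was 0.46 (SE 0.11, limma adjusted p = 0.923), so it did not pass the test. Against C57BL/6 the limma adjusted p was 0.0286 for the line (difference -1.02, SE 0.15), 0.0865 for TG3 (-0.79) and 0.0221 for nonTG3 (-1.25). The call for the line was lost in 4 of 6 fits with an array left out, with limma adjusted p up to 0.0859. Without both arrays of low mitochondrial RNA 0 Leydig cell genes were called in any contrast, while the line minus C57BL/6 differences were -4.15 for Cyp17a1, -2.28 for Hsd3b6, -1.15 for Hsd17b3 and -1.06 for Star. Fewer cells of a type in the pool and less RNA per cell cannot be told apart in such bulk samples.

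**Figure D4:**
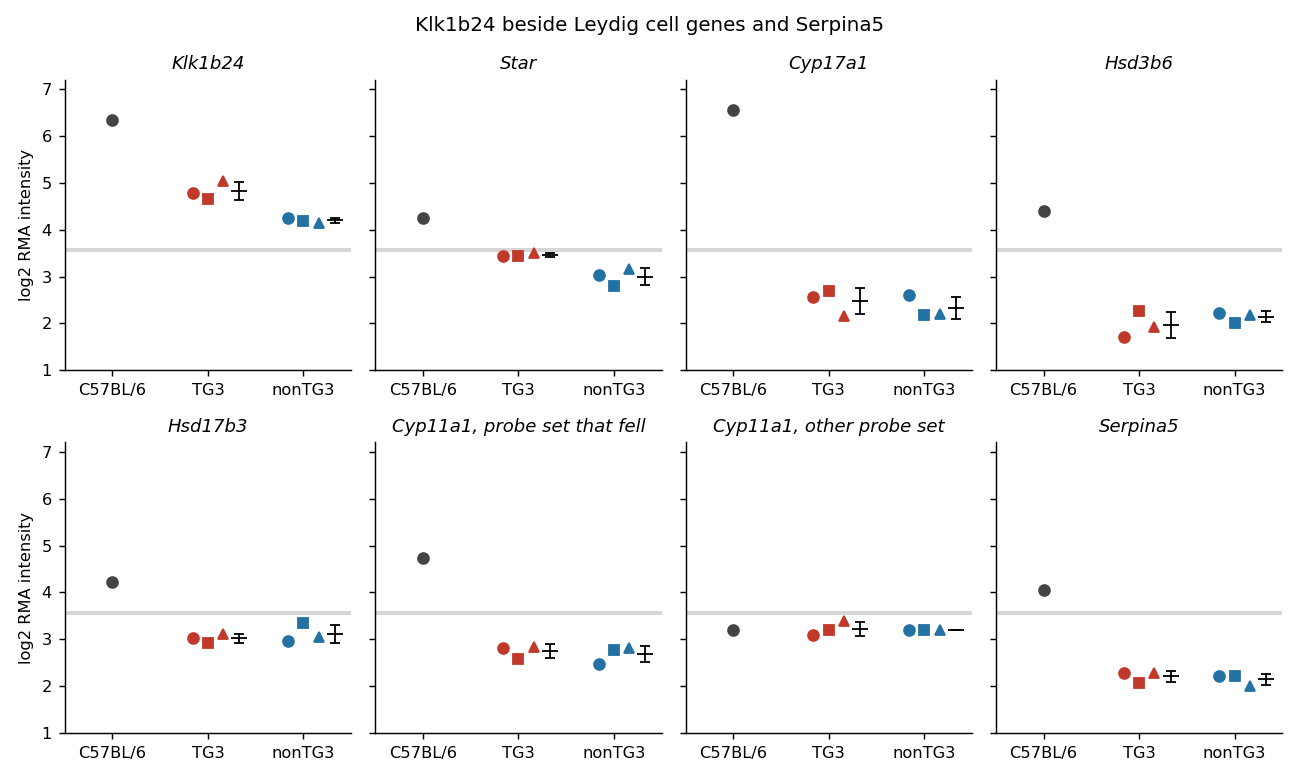
Log2 RMA intensity of Klk1b24, of 5 Leydig cell genes (Cyp11a1 by both of its probe sets) and of Serpina5 on each array by group, with symbols, bars and grey band as in the plot of the 4 kallikreins. C57BL/6 is the top point in every panel but that of the second Cyp11a1 probe set, and only Klk1b24 and Star of these panels have TG3 wholly above nonTG3.

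Some genes of other cells of the testis were also higher in C57BL/6. limma called 5 of 19 Sertoli cell genes, 8 of 14 late spermatid genes and 6 of 11 meiotic genes lower for the line against C57BL/6. The Sertoli list's mean level was 4.94 in C57BL/6 and 3.58 to 3.86 in the line, the late spermatid list's 9.33 and 7.61 to 7.82, and the meiotic list's 5.87 and 4.03 to 4.53. The median line minus C57BL/6 difference was -0.20 for the Sertoli list, whose 5 called genes differed by -2.23 to -6.26, and -1.54 and -1.89 for the late spermatid and meiotic lists. For glands that also express kallikreins, limma called 0 of 12 accessory gland genes and 0 of 9 salivary gland genes. Their mean levels were 2.66 and 2.73 in C57BL/6, and 2.44 to 3.48 and 2.60 to 3.19 in the line. The highest accessory gland level was in TG3 replicate 1, where Svs5, a seminal vesicle secretory protein, read 7.56 against 3.21 to 4.85 elsewhere. The highest Klk1b27 and Klk1b24 readings of the line were in TG3 replicate 3. The salivary list was also at its highest there, at 3.19 against 2.95 on TG3 replicate 1, but below the array medians of 3.52 to 3.61. limma called 0 of 14 leukocyte genes, 0 of 14 genes of fibroblasts, muscle and vessels, and 1 of 14 epididymal genes, Lcn8, higher in the line (2.45 in C57BL/6 and 3.07 to 3.25 in the line). The Lcn8 call was lost in 6 of 6 fits with an array left out (limma adjusted p 0.0567 to 0.0841), and 0 of 7 arrays reached their median. The part of any of these cells in the members' values was not tested.

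The genes whose levels followed each member most closely were named by Pearson's r over the 7 arrays, among 4111 probe sets with a range of at least 1 log2 unit and at least 1 array at its median. The lone C57BL/6 array weighs heavily in r, so r over the 6 arrays of the line stands beside it, and both are descriptions of these arrays. For Klk1b24 they were Actl7b, an actin-like protein of spermatids (0.98 and 0.91), Bpgm (0.98 and 0.90) and Cpt2 (0.97 and 0.86). For Klk1b21 they were Tnks (0.98 and 0.96), Derl2 (0.97 and 0.93) and Ireb2 (0.96 and 0.89). For Klk1b22 they were Tex22 (0.99 and 0.93), Efcab5 (0.98 and 0.88) and Fbp1 (0.98 and 0.88). For Klk1b27 they were Mir3085 (0.99 and 0.99), Mrps16 (0.98 and 0.98) and Tti1 (0.95 and 0.94). No gene was on 2 of these lists.

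Among the members themselves, Klk1b24 and Klk1b27 were the pair most alike within the line, with r = 0.84 over its 6 arrays and 0.68 over all 7. Klk1b24 and Klk1b21, the pair with the most similar promoters, had -0.33 and 0.60. Klk1b21 and Klk1b22 had -0.34 and 0.62. Of the Leydig cell genes, Star had 0.87 within the line and 0.96 over all arrays with Klk1b24, and the others did not follow it as closely within the line. There Cyp17a1 had 0.12, Hsd3b6 -0.52 and Hsd17b3 -0.21, and the Cyp11a1 probe sets had 0.30 (lower in the line) and 0.40. The other members did not share the likeness to Star alike. Within the line Star had r of -0.37 with Klk1b21, 0.29 with Klk1b22 and 0.65 with Klk1b27. With these Leydig cell genes Klk1b21 ran from -0.95 (the Cyp11a1 probe set lower in the line) to 0.59 (Hsd3b6). The line's Star values lay below the array medians. Over all 7 arrays the 6 pairs of members had r from 0.22 to 0.81, and within the line only Klk1b24 with Klk1b27 had a positive r.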

How the data were processed

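RNA of pooled sperm was hybridised to Affymetrix whole-transcript arrays after amplification and biotin labelling, per the labels' protocols. The deposited values are log2 intensities that the authors made with RMA (background correction, quantile normalization and a summary per probe set). R 3.1.0, oligo, RMA and limma are the tools named, per the submitters' processing notes. The sources used here give no genome build, probe filter or scan batch. RMA draws arrays together, so a change in total RNA would not show, and dim probe sets are compressed.

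Of 33604 probe sets, 23493 had 1 symbol in the platform annotation and were tested, 1801 had several and 8310 had none. The 4 Entrez identifiers of the members matched RefSeq symbols (4 of 4). limma 3.58.1 in R 4.3.3 fitted a mean per group to all 7 arrays, with eBayes (4 residual and 1.65 prior degrees of freedom) and Benjamini-Hochberg adjustment over 23493 probe sets, and was tested on simulated data. Where a listed gene had several probe sets, that with the highest mean was counted. Promoter windows were aligned globally with free end gaps in Biopython 1.88 (match 1, mismatch -1, inner gap opening -3 and extension -0.5). Identity is the share of matches among aligned bases, with gaps left out. Figures were drawn with matplotlib 3.10.9.

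The members, gene lists and tests were chosen with earlier results of these data known. Named were every member, every called kallikrein and Klk1, every called gene of the kinin list, 7 Leydig cell genes where measured, and the 3 genes most like each member, leaving out predicted names. Same-numbered TG3 and nonTG3 arrays deviated together with r of -0.45, 0.016 and -0.40, so the numbers did not pair the arrays. Alternatives were other normalizations and priors, array weights, filters on dim probe sets, thresholds, arrays left out, fits on fewer groups, and a block for the replicate number.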

Additional observations from a re-analysis of the deposited data

How the results depend on the processing

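The members' median differences kept their sign and stayed within the spread between replicates under every alternative run, at 0.20 to 0.36 for TG3 minus nonTG3, -1.38 to -1.11 for the line minus C57BL/6, -1.30 to -1.19 for TG3 and -1.67 to -1.33 for nonTG3 minus C57BL/6. Klk1b24 ran from 0.52 to 0.71, -1.88 to -1.68, -1.62 to -1.36 and -2.18 to -2.0, with the ends nearest 0 for the C57BL/6 contrasts under a repeated quantile normalization. In each C57BL/6 contrast that setting moved Klk1b24 by more than its own spread between replicates, and the other alternatives did not. With 1 array left out, TG3 minus nonTG3 ran from -0.44 to 0.035 for Klk1b21 and from -0.22 to 0.11 for Klk1b22. It changed sign for Klk1b21 without nonTG3 replicate 1 (0.035) and for Klk1b22 with array weights (0.012), without nonTG3 replicate 3 (0.11) and without both arrays of low mitochondrial RNA (0.078), and the cause was not tested.

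Other kallikreins called stayed at 0 in every alternative. The members past the threshold ranged from 0 to 2 in each contrast with C57BL/6. The kinin and marker lists had 25 genes called for the line, 24 for TG3 and 25 for nonTG3 against C57BL/6. With 1 array of the line left out these were 21 to 24, 20 to 22 and 20 to 21. Asking for 3 arrays at or above the median gave 12 in each contrast, and a mean at or above the median probe set gave 16 for the line and 16 for nonTG3, with fewer genes tested. Fits on the 2 groups of a contrast alone gave 0 for TG3 and 5 for nonTG3. Without both arrays of low mitochondrial RNA the counts were 0 in all 3 contrasts, with 2 fewer arrays. With the replicate block, whose numbers did not pair the arrays, they were also 0 in all 3. Over all probe sets the line's count ran from 0 to 1059, and from 350 to 496 with 1 array left out, against 710. A fit on the groups of the contrast alone was not run for the line, which uses every group. Where a member is near or below the array median, its distance from background limits what its values show.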

Other observations

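Klk1b7-ps, a transcribed pseudogene of the same row that is no member and was chosen for naming after its values were seen, read 8.13 in C57BL/6, 8.59, 8.29 and 7.88 in TG3, and 8.69, 8.99 and 9.31 in nonTG3. Every nonTG3 array was above every TG3 array, the opposite order to Klk1b24, with a TG3 minus nonTG3 difference of -0.75, and every TG3 array below every nonTG3 array was the pattern of 1.65% of all 23493 probe sets. Klk6, a kallikrein of brain, also had TG3 (2.59, 2.23 and 2.59) below nonTG3 (2.74, 2.72 and 2.84), at a limma adjusted p of 0.923. Unlike Klk1b7-ps, Klk6 reached the array median on 0 of 7 arrays, so its order rests on values below it.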
